A study of Danio rerio with 6 samples.

Results

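A set of 10 genes used as markers of macrophages and other leukocytes was followed in RNA sequenced from sorted zebrafish thyroid follicular cells, as a check for immune cells in the sort. Rows of the deposited count table were taken where the gene name was cd74a, cd74b, mpeg1.1, mpeg1.2, marco, csf1ra, spi1b, ptprc, coro1a or lcp1, which gave 10 of 32059 rows, each name matching a single row. The fish were 5 months old and carried Tg(tg:nls-EGFP), a nuclear green reporter under the thyroglobulin promoter, together with a pax2a:mKO2 knock-in, an orange reporter at the gene of a thyroid transcription factor. Cells were sorted into a pax2a-high (mKO2-high) and a pax2a-low (mKO2-low) population, with 3 libraries each, and every library carries both alleles. The labels do not say how many fish went into a library, whether replicates came from separate fish, or whether a leukocyte antibody was used in the sort.

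Macrophages are phagocytes that settle in most tissues, where they engulf debris and microbes and show peptides to T cells. Their formation depends on the transcription factor Spi1 (PU.1) and on the growth factor receptor Csf1r. Presentation to T cells uses MHC class II molecules, which are assembled on the invariant chain Cd74. Other leukocytes share with macrophages the surface phosphatase Ptprc (CD45) and the actin-binding proteins Coro1a and Lcp1.

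Library totals were 18014891 to 35403210 counts in pax2a-high and 6053741 to 10932845 counts in pax2a-low libraries. Genes with at least 1 count in a library made up 52.7 to 83.6% (pax2a-high) and 35.9 to 60.8% (pax2a-low) of those detected anywhere in the series. Mitochondrially encoded rows took 0.799 to 1.17% of the counts of each pax2a-high library and 24.1 to 49.0% of those of each pax2a-low library. The sort gene pax2a had 4969 to 20604 counts in pax2a-high libraries, and 12, 10 and 2014 counts in pax2a-low replicates 1, 2 and 3, so replicate 3 of the pax2a-low group stands apart from the other 2. The reporter row mKO2 had 74, 671 and 654 counts in the pax2a-high replicates and 0, 6 and 0 counts in the pax2a-low replicates, replicate 3 included. Levels below are CPM, counts scaled to a library of 1000000, with the library size corrected by TMM, and fold changes are pax2a-high over pax2a-low. In bulk RNA, fewer cells of a type and less RNA per cell cannot be told apart.

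The invariant chain genes cd74a and cd74b and the macrophage pore-forming gene mpeg1.2 were counted in all 6 libraries, and their level in every pax2a-high library lay below that in every pax2a-low library. The other 7 markers were sparse, were at 0 in many libraries, and, apart from lcp1, showed no separation of the groups. None of the 6 markers that could be tested passed edgeR's quasi-likelihood test at an adjusted p of 0.05.

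The invariant chain gene cd74a (ENSDARG00000009087) had 58.3, 84.3 and 2.79 CPM in the pax2a-high replicates 1, 2 and 3, against 409, 869 and 453 CPM in the pax2a-low replicates 1, 2 and 3. Every pax2a-low library was above every pax2a-high library, and pax2a-high replicate 3 was the lowest of all. Mean levels were 48.5 ± 41.6 CPM for the pax2a-high group and 577 ± 254 CPM for the pax2a-low group (SD, n = 3 each), with the pax2a-low mean 11.9 times the pax2a-high mean. The fitted log2 fold change was -3.57 (SE 1.01, edgeR adjusted p = 0.127).

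Its duplicate cd74b (ENSDARG00000036628), a second invariant chain gene of fish, had 45.1, 63.2 and 9.16 CPM in the pax2a-high replicates, against 83.6, 436 and 389 CPM in the pax2a-low replicates. The groups did not overlap, although pax2a-low replicate 1 was close to pax2a-high replicate 2. The log2 fold change was -2.95 (SE 0.78, edgeR adjusted p = 0.0597). Within each library, cd74a took 56.3, 57.2 and 23.3% of the counts of the 2 invariant chain genes in pax2a-high replicates, against 83.0, 66.6 and 53.8% in pax2a-low replicates. The balance of the pair therefore varied between libraries of the same group. The authors' treatment of reads shared by similar copies is not given in the sources used here, so the split between cd74a and cd74b, and between mpeg1.1 and mpeg1.2, is uncertain.

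The gene mpeg1.2 (ENSDARG00000043093) encodes a form of perforin-2, a pore-forming protein that macrophages use against engulfed bacteria. It had 0.124, 5.94 and 3.07 CPM in the pax2a-high replicates, against 88.6, 137 and 66.6 CPM in the pax2a-low replicates. The lowest pax2a-low library was thus far above the highest pax2a-high library. Mean levels were 3.05 ± 2.91 CPM for the pax2a-high group and 97.4 ± 35.9 CPM for the pax2a-low group (SD, n = 3 each), and the log2 fold change was -4.99 (SE 1.33, edgeR adjusted p = 0.0615).

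The adjusted p-values of these 3 genes depended on the fit. All 3 passed with DESeq2 (adjusted p of 0.0068 for cd74a, 0.016 for cd74b and 0.0003 for mpeg1.2) and with limma (adjusted p of 0.0077, 0.0082 and 0.049 in the same order). Each also passed edgeR without pax2a-high replicate 2 (adjusted p of 1.68e-06, 0.0023 and 0.017) and without pax2a-high replicate 3 (0.0003, 0.033 and 0.045). Without pax2a-low replicate 1, cd74b and mpeg1.2 passed (0.0067 and 0.026) and cd74a did not (0.406). Without pax2a-low replicate 3, mpeg1.2 passed (0.015), but cd74a (0.379) and cd74b (0.063) did not. None of the 3 passed edgeR without pax2a-high replicate 1 (0.203, 0.203 and 0.144) or without pax2a-low replicate 2 (0.183, 0.202 and 0.195). With a filter of 5 CPM in 3 libraries, none passed either (0.093, 0.102 and 0.087). Without a count filter, all 3 passed edgeR (5.2e-08, 0.0007 and 0.0075).

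**Figure D1:**
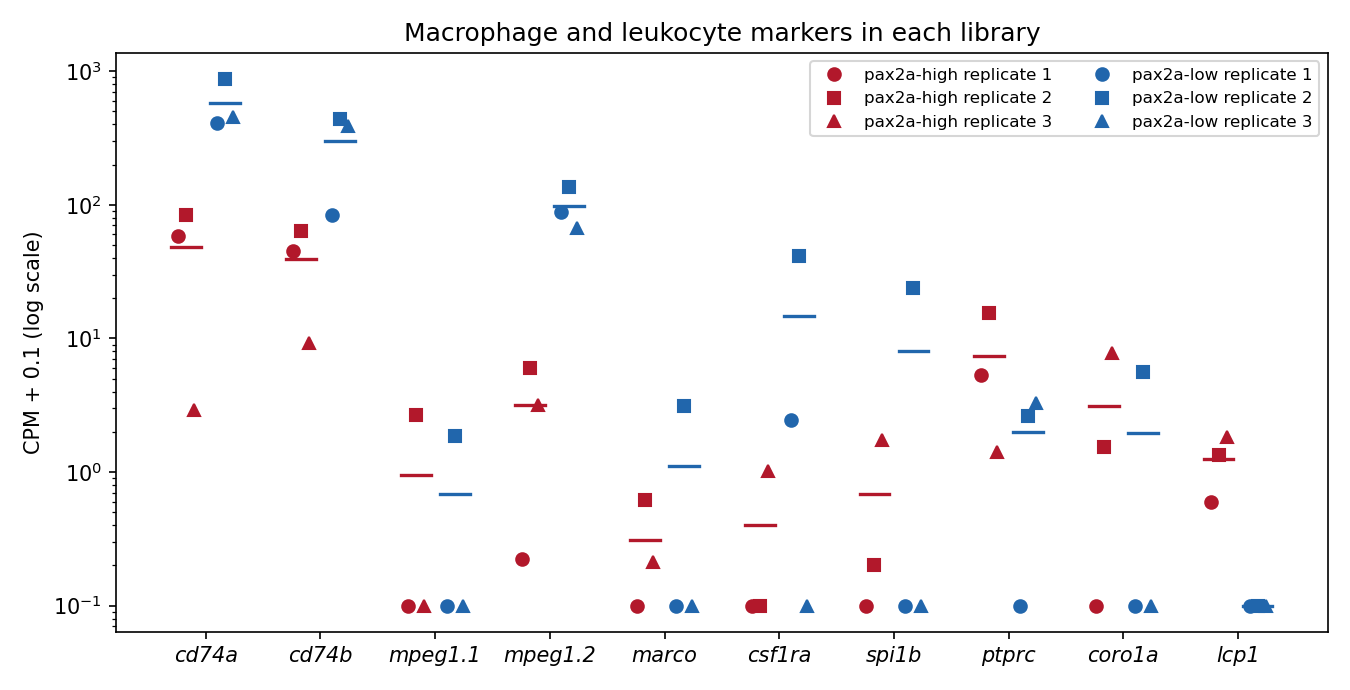
Levels of the 10 markers in each library, as CPM + 0.1 on a log scale. Red points are the 3 pax2a-high and blue points the 3 pax2a-low libraries, with a symbol for each replicate number and a line at the group mean. Points at the bottom are libraries with 0 counts. For cd74a, cd74b and mpeg1.2 all blue points lie above all red points, whereas each of the other 7 markers has at least 1 library at 0.

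The second perforin-2 gene, mpeg1.1 (ENSDARG00000055290), is the gene whose promoter is commonly used to label zebrafish macrophages. It had 0, 50 and 0 counts in the pax2a-high replicates and 0, 14 and 0 counts in the pax2a-low replicates. Only the libraries numbered 2 held any, so pax2a-low replicates 1 and 3, with 454 and 844 counts of mpeg1.2, had none of mpeg1.1. A further copy, mpeg1.3, had 246 counts in pax2a-high replicate 2 and 0 in the other libraries.

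The transcription factor gene spi1b (ENSDARG00000000767), needed for myeloid cells to form, had 0, 2 and 58 counts in the pax2a-high replicates and 0, 190 and 0 counts in the pax2a-low replicates. Its duplicate spi1a had 0, 4 and 44 counts in the pax2a-high and 0, 106 and 0 counts in the pax2a-low replicates. Both copies were thus seen in the same 3 libraries and were highest in pax2a-low replicate 2. A count of 0 allows a level of up to 3 counts if counts are independent. At 3 counts, the floor was 0.586 CPM in pax2a-low replicate 1 and 0.237 CPM in pax2a-low replicate 3, and it covers counting error only.

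The receptor gene csf1ra (ENSDARG00000102986), which binds Csf1 and Il34 and in zebrafish also serves yellow pigment cells, had 0, 0 and 32 counts in the pax2a-high replicates and 12, 331 and 0 counts in the pax2a-low replicates. In CPM, pax2a-low replicate 2 reached 41.6, pax2a-low replicate 1 had 2.34 and pax2a-high replicate 3 had 0.910. The groups overlapped, and the log2 fold change was -5.54 (SE 3.30, edgeR adjusted p = 0.550). Leaving out pax2a-low replicate 2 gave -1.92 (edgeR adjusted p = 0.756). The duplicate receptor gene csf1rb had 78 counts in pax2a-high replicate 3, 2 counts in pax2a-low replicate 3 and 0 elsewhere. In the RefSeq annotation of GRCz12tu, cd74a and csf1ra lie on the same chromosome with 3 protein-coding genes between them, and pax2a-low replicate 3 had 5744 counts of cd74a and 0 of csf1ra.

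The scavenger receptor gene marco (ENSDARG00000059294), which binds bacteria and particles, had 0, 10 and 4 counts in the pax2a-high replicates and 0, 24 and 0 counts in the pax2a-low replicates. It was the rarest of the markers, with 14 counts in all in the pax2a-high group and 24 in the pax2a-low group.

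Markers shared by most leukocytes did not follow cd74a, cd74b and mpeg1.2. The phosphatase gene ptprc (ENSDARG00000071437) had 5.19, 15.3 and 1.31 CPM in the pax2a-high replicates, against 0, 2.51 and 3.16 CPM in the pax2a-low replicates. The ranges overlapped, the mean was higher in pax2a-high cells, and the log2 fold change was 1.93 (SE 2.53, edgeR adjusted p = 0.885). The coronin gene coro1a (ENSDARG00000054610), which acts on leukocyte actin, had 0, 28 and 270 counts in the pax2a-high and 0, 44 and 0 counts in the pax2a-low replicates. Its log2 fold change was 0.72 (SE 2.79, edgeR adjusted p = 0.978), and it was -1.33 without pax2a-high replicate 3 and 8.74 without pax2a-low replicate 2 (edgeR adjusted p of 1 and 0.309), so its direction rested on single libraries.

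The L-plastin gene lcp1 (ENSDARG00000023188), an actin-bundling protein of leukocytes, was the only marker with no overlap in the other direction. It had 8, 24 and 61 counts in the pax2a-high replicates and 0 in every pax2a-low replicate. Its mean of 1.15 ± 0.624 CPM (SD, n = 3) in pax2a-high cells was 2.88 times the mean floor of 3 counts per pax2a-low library. Most nonzero counts of each library were even numbers, so counts may not be independent. The floor may then be too low and this ratio too high. Scaled to the depth of the shallowest library, the pax2a-high counts would be 2.69, 7.12 and 10.4, so the difference stands close to what this depth can show.

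The filter on low counts kept 6 of the 10 markers and left out mpeg1.1, marco, spi1b and lcp1. Of the 6 tested, edgeR called 0 higher and 0 lower at an adjusted p of 0.05, against 2.58% of all 12524 genes called in either direction, 1.12% higher and 1.46% lower. Fold changes were negative for 4 of the 6, beside 42.9% of all genes tested. At an unadjusted p under 0.05, 3 were lower and 0 higher by edgeR, and these were cd74a, cd74b and mpeg1.2, against 4.6% of all genes tested lower and 9.76% higher. By adjusted p, DESeq2 and limma each called 3 markers lower and 0 higher. Over all genes DESeq2 called 4.1% lower and 6.57% higher, and limma called 2.47% lower and 1.09% higher. The same 3 genes did not overlap between groups, with all pax2a-high libraries below all pax2a-low libraries, as did 8.11% of all genes tested. In the opposite direction, the direction of lcp1, 21.4% of the genes tested did not overlap. In order of unadjusted p among the 12524 genes, cd74b was in place 361, mpeg1.2 in place 364 and cd74a in place 594. The median log2 fold change of the 6 was -3.26, beside 0.35 for all genes tested. Without the filter, the 4 remaining markers had edgeR adjusted p of 0.963 for mpeg1.1, 0.791 for marco, 0.581 for spi1b and 0.454 for lcp1.

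**Figure D2:**
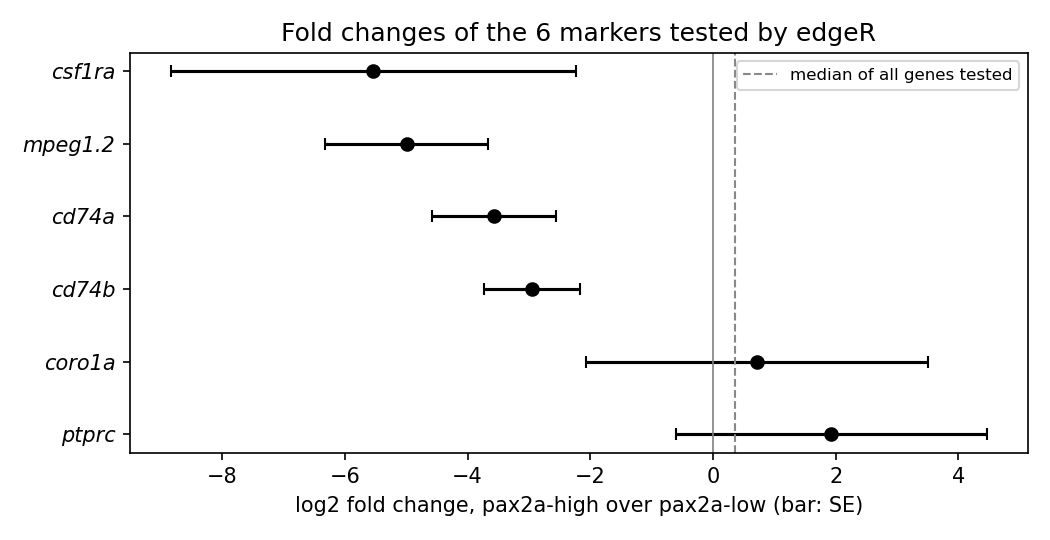
Log2 fold changes (pax2a-high over pax2a-low) of the 6 markers tested with edgeR, with bars for the standard error and a dashed line at the median of all genes tested, 0.35. The estimates of cd74a, cd74b and mpeg1.2 run from -2.95 to -4.99 with bars clear of 0. That of csf1ra is -5.54 with a wide bar (SE 3.30) that is also clear of 0, at an edgeR adjusted p of 0.550. Those of ptprc and coro1a are positive with bars that cross 0. A bar clear of 0 does not mean that a gene passed the test.

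Summed over the 10 markers, the level was 109, 175 and 28.4 CPM in the pax2a-high replicates, against 584, 1520 and 912 CPM in the pax2a-low replicates. Mean sums were 104 ± 73.2 CPM for the pax2a-high group and 1005 ± 475 CPM for the pax2a-low group (SD, n = 3 each). Most of this sum lay in cd74a, cd74b and mpeg1.2, least clearly in pax2a-high replicate 3, and these held 104, 153 and 15.02 CPM in the pax2a-high replicates, against 581, 1442 and 909 CPM in the pax2a-low replicates. The other 7 markers together held 5.69, 21.1 and 13.4 CPM in the pax2a-high replicates, against 2.34, 78.3 and 3.16 CPM in the pax2a-low replicates. For these 7 the pax2a-low group held both the highest library and the 2 lowest. This division into 3 and 7 markers was made after their values were seen and was not tested.

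The counts of the 7 sparse markers came to 5.50, 13.8 and 89.2% of those of the 3 abundant ones in the pax2a-high replicates, against 0.403, 5.43 and 0.347% in the pax2a-low replicates. The proportions among the markers thus differed between libraries of the same group, and were lowest in pax2a-low replicates 1 and 3. Of the 7, pax2a-high replicates 1, 2 and 3 had counts for 2, 6 and 6, and pax2a-low replicates 1, 2 and 3 for 1, 6 and 1. In pax2a-low replicate 1 the single marker seen was csf1ra, with 12 counts, and in pax2a-low replicate 3 it was ptprc, with 40 counts.

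Libraries with few detected markers were also those in which few genes were detected at all. Of the 12524 genes tested, 18.98, 5.75 and 2.29% had 0 counts in the pax2a-high replicates 1, 2 and 3, against 43.3, 12.1 and 27.3% in the pax2a-low replicates 1, 2 and 3. Within the pax2a-low group, 5 of the 9 markers with any count there had at least 90% of their CPM in replicate 2, namely mpeg1.1, marco, csf1ra, spi1b and coro1a. The same held for 29.3% of the 17466 genes with counts in that group. The part of this sparse detection in the marker values was not tested.

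**Figure D3:**
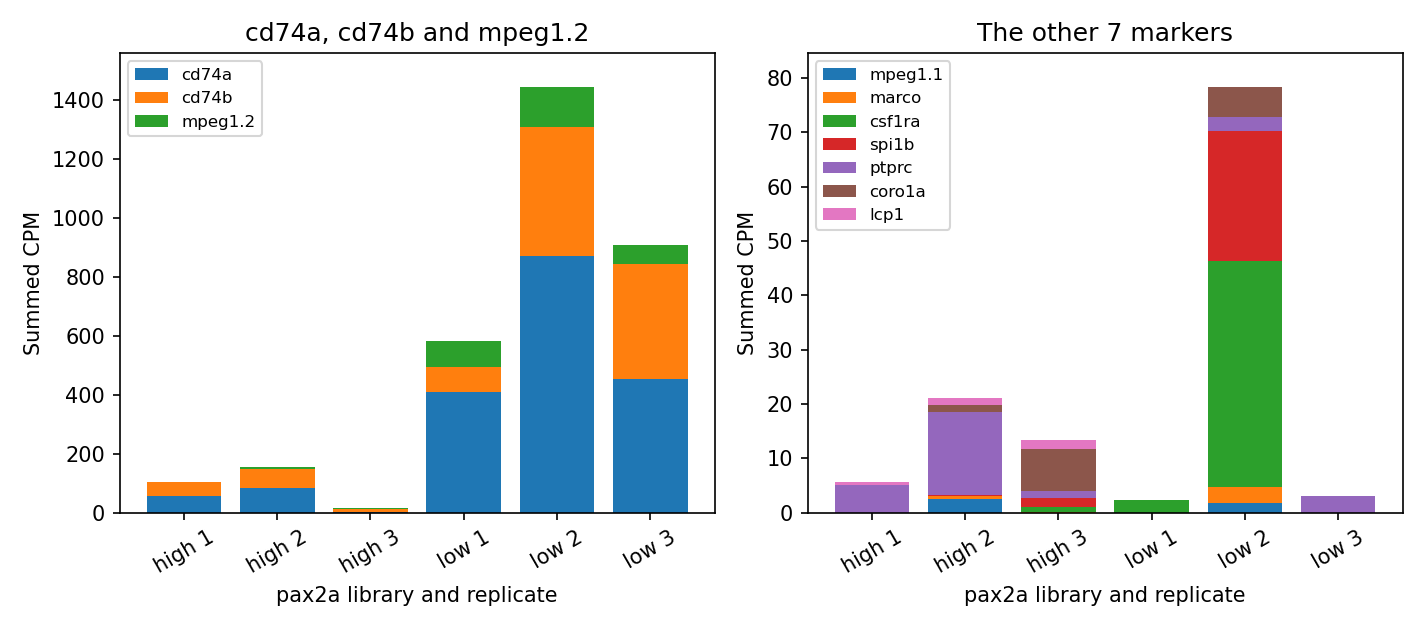
Summed CPM per library of cd74a, cd74b and mpeg1.2 (left) and of the other 7 markers (right), stacked by gene, with pax2a-high libraries to the left of pax2a-low libraries and separate linear axes that start at 0. The left sums run between 15.02 and 153 CPM for pax2a-high, and between 581 and 1442 CPM for pax2a-low libraries. On the right, pax2a-low replicate 2 stands at 78.3 CPM and the other pax2a-low libraries below all 3 pax2a-high libraries.

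The MHC class II pathway, in which Cd74 acts, was followed in a list of 19 genes, of which 13 were in the table and 9 were tested. By edgeR 0 of the 9 passed and 0 had an unadjusted p under 0.05, DESeq2 and limma called 0, and 7 had negative fold changes (median log2 fold change -1.49, beside 0.35 for all genes tested). Among all genes tested, 42.9% had negative fold changes. The class II transactivator gene ciita, which switches on class II genes, had 4.08, 9.43 and 9.24 CPM in the pax2a-high replicates, against 41.4, 30.4 and 36.1 CPM in the pax2a-low replicates. The groups did not overlap (edgeR log2 fold change -2.24, SE 1.65, adjusted p = 0.691). The class II beta chain gene mhc2dab had 0.124, 28.7 and 0 CPM in the pax2a-high replicates, against 33.2, 79.0 and 51.6 CPM in the pax2a-low replicates (log2 fold change -2.51, SE 1.94, edgeR adjusted p = 0.724). It passed without pax2a-high replicate 2 (log2 fold change -9.72, edgeR adjusted p = 0.047). The class II alpha chain gene mhc2a overlapped, at 28.1, 48.2 and 3.64 CPM in the pax2a-high and 39.6, 115 and 69.9 CPM in the pax2a-low replicates. Genes of the MHC class I pathway, which most cell types express, were on both sides of 0. Of 15 tested, 8 were positive and 7 negative, near the shares of all genes tested. None passed edgeR, DESeq2 or limma, and 0 had an unadjusted edgeR p under 0.05.

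Of 7 tested genes from a list of other macrophage and microglia markers, 0 passed edgeR's test, while 3 were lower and 1 higher at an unadjusted p under 0.05. Among all genes tested, 4.6% were lower and 9.76% higher at that threshold. DESeq2 called 2 lower and 1 higher, beside 4.1% and 6.57% of all genes, and limma called 0. In sign, 3 of the 7 fold changes were positive and 4 negative, beside 42.9% negative among all genes tested. The apolipoprotein gene apoeb, a microglia marker that other tissues also make, had 0.866, 0 and 0.427 CPM in the pax2a-high replicates, against 355, 597 and 18.3 CPM in the pax2a-low replicates (edgeR log2 fold change -9.54, SE 1.93, adjusted p = 0.052). The groups did not overlap, and apoeb passed with DESeq2 (adjusted p = 1.35e-10), without pax2a-high replicate 2 (edgeR adjusted p = 1.95e-13), without pax2a-high replicate 3 (0.0026), and with either pax2a-low replicate 2 (0.049) or replicate 3 (0.018) left out, but not with limma (0.249). Nor did apoeb pass edgeR without pax2a-high replicate 1 (adjusted p = 0.128) or without pax2a-low replicate 1 (0.271). With both libraries numbered 1, 2 or 3 left out, it did not pass either (edgeR adjusted p of 0.260, 0.212 and 0.149). The haem oxygenase gene hmox1a, which breaks down haem, had 540, 831 and 321 CPM in the pax2a-high replicates, against 3.91, 16.3 and 78.5 CPM in the pax2a-low replicates. It lay the other way with no overlap (edgeR log2 fold change 4.1, SE 0.98, adjusted p = 0.063). The cysteine protease gene ctsk, made by osteoclasts, also had every pax2a-high library above every pax2a-low library, at 15.1, 19.4 and 23.7 CPM in the pax2a-high replicates, against 0, 8.80 and 0.474 CPM in the pax2a-low replicates (edgeR adjusted p = 0.785). The scavenger receptor gene stab1 had 0, 2.36 and 6.43 CPM in the pax2a-high replicates and 1.17, 78.4 and 158 CPM in the pax2a-low replicates, and the mannose receptor gene mrc1a had 0 in the pax2a-high replicates and 0, 4.78 and 71.2 CPM in the pax2a-low ones. Both genes are also made by lymphatic and sinusoidal endothelium, and pax2a-low replicate 3 was highest for each. Among the sparse genes of this list, the complement genes c1qa and c1qc, secreted by tissue macrophages, had 52 and 74 counts in pax2a-low replicate 2 and 0 in every other library. The complement gene c1qb of the same list had 0 counts in every library. The chemokine gene ccl34b.1 had 136 counts in pax2a-high replicate 2 and 0 in every other library, and the galectin gene lgals9l1 had 36, 52 and 2 counts in the pax2a-high replicates, against 0, 0 and 1 in the pax2a-low replicates.

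Lists of leukocyte function gave few calls. Of all genes tested, edgeR called 1.46% lower and 1.12% higher, with 4.6% lower and 9.76% higher at an unadjusted p under 0.05. DESeq2 called 4.1% of them lower and 6.57% higher, and limma 2.47% lower and 1.09% higher. Negative edgeR fold changes made up 42.9% of all genes tested. Of 17 tested genes of leukocyte signalling and adhesion, 0 passed edgeR's test (2 higher and 0 lower at an unadjusted p under 0.05) and 12 were negative, with a median log2 fold change of -1.07. DESeq2 called 1 higher and 0 lower, and limma called 0. Their summed level was 453, 512 and 378 CPM in the pax2a-high replicates, against 173, 491 and 225 CPM in the pax2a-low replicates. Both genes with an unadjusted p under 0.05 had every pax2a-high library above every pax2a-low library, as did 21.4% of all genes tested. The tetraspanin gene cd9b had 335, 406 and 228 CPM in the pax2a-high replicates, against 14.6, 97.0 and 85.4 CPM in the pax2a-low replicates (edgeR adjusted p = 0.094). This gene alone made up most of the list's sum in each pax2a-high library and a smaller part in each pax2a-low library. The higher pax2a-high sums of the list therefore lay largely in cd9b. The integrin gene itgam, an alpha chain of myeloid cells, had 335, 23 and 104 counts in the pax2a-high replicates, against 0 in each pax2a-low replicate (edgeR adjusted p = 0.203). Its partner chain itgb2, shared by most leukocytes, had 46 counts in pax2a-low replicate 2 and 0 elsewhere. Of 10 tested myeloid transcription and growth factor genes 0 passed edgeR (0 higher and 1 lower at an unadjusted p under 0.05), DESeq2 called 1 lower and limma 2 lower, and 8 were negative (median -1.38). The gene with the smallest p was gata2a, which is not specific to blood cells. It had 0.124, 0 and 2.33 CPM in the pax2a-high replicates, against 88.3, 66.6 and 85.8 CPM in the pax2a-low replicates (edgeR adjusted p = 0.063). In the other direction, irf8 had 0, 50.2 and 30.1 CPM in the pax2a-high replicates, against 0.391, 6.28 and 0 CPM in the pax2a-low replicates. For irf8 the groups overlapped (edgeR log2 fold change 3.58, SE 2.66, adjusted p = 0.699). Of 9 tested haematopoietic actin and GTPase genes 1 fell, the coronin gene coro1b, a relative of coro1a that many mammalian cell types make. It had 0, 0 and 2 counts in the pax2a-high replicates and 506, 152 and 670 counts in the pax2a-low replicates (edgeR adjusted p = 0.013), and the call was lost without pax2a-high replicate 1 (0.075). Of 2 tested phagocyte oxidase genes 0 passed edgeR (1 lower at an unadjusted p under 0.05), while DESeq2 called 1 lower and limma 0. Of 12 tested inflammatory genes 0 passed edgeR (1 higher and 2 lower at an unadjusted p under 0.05), while DESeq2 called 1 higher and 2 lower and limma 1 higher and 1 lower. The smallest p was that of the nitric oxide synthase gene nos2b, at 60.8, 33.7 and 52.5 CPM in the pax2a-high replicates, against 0, 0 and 0.789 CPM in the pax2a-low replicates (edgeR adjusted p = 0.105). The 2 lower genes were cxcl19 and ptgs2a. In the pax2a-high replicates cxcl19 had 0, 0 and 1.05 CPM, against 0.391, 243 and 37.8 CPM in the pax2a-low replicates (edgeR adjusted p = 0.173). For ptgs2a the groups did not overlap, at 3.46, 0 and 0 CPM (pax2a-high) and 79.9, 429 and 196 CPM (pax2a-low, edgeR adjusted p = 0.209). The summed levels of the myeloid factor list did not overlap between groups, at 490 to 573 CPM (pax2a-high) and 678 to 1008 CPM (pax2a-low). Nor did those of the actin and GTPase list, at 211 to 290.4 CPM (pax2a-high) and 362 to 382 CPM (pax2a-low). Of the myeloid sums, kita held 0, 0.205 and 29.6 CPM in the pax2a-high and 80.1, 122 and 251 CPM in the pax2a-low replicates. Of the actin sums, coro1b held 0, 0 and 0.057 CPM (pax2a-high) and 98.8, 19.1 and 52.9 CPM (pax2a-low). The part of single genes in these separations was not tested.

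Markers of other blood cells ranged from genes with no counts to genes found in every library, such as the ferritin gene fth1a, which many cell types make. In the neutrophil list the smallest p was that of srgn, a granule proteoglycan that other cells also make, at 94.6, 104 and 56.2 CPM in the pax2a-high replicates, against 0, 4.52 and 3.95 CPM in the pax2a-low replicates (edgeR log2 fold change 4.90, SE 1.47, adjusted p = 0.105). Every pax2a-high library was above every pax2a-low library for srgn. The neutrophil enzyme gene mpx had 8 counts in pax2a-high replicate 1 and 0 elsewhere, and the lysozyme gene lyz had 0 in all 6 libraries. Other genes of the list did not share a direction. The gene mmp9 had 141, 0 and 221 counts in the pax2a-high replicates and 0, 86 and 2 counts in the pax2a-low replicates. Its edgeR log2 fold change was 0.45 (SE 2.73, adjusted p = 0.990). The chemokine receptor gene cxcr1 had 260 counts in pax2a-low replicate 2, 1 count in pax2a-high replicate 3 and 0 elsewhere. Its relative cxcr2 had 376 counts in pax2a-low replicate 3 and 0 elsewhere. The T cell kinase gene lck had 4 counts in pax2a-high replicate 2 and 0 elsewhere. The B cell receptor gene cd79a had 154 and 23 counts in pax2a-high replicates 2 and 3 and 0 in the others. By edgeR 0 of 3 neutrophil, 0 of 4 B cell, 0 of 2 thrombocyte and 0 of 7 erythrocyte genes passed. At an unadjusted p under 0.05, 1 neutrophil, 1 thrombocyte and 1 erythrocyte gene were higher and 1 erythrocyte gene was lower. DESeq2 called as many in each list, and limma called 0. Among all genes tested, 9.76% were higher and 4.6% lower at an unadjusted edgeR p under 0.05. DESeq2 called 6.57% of them higher and 4.1% lower, and edgeR called 1.46% lower by adjusted p. Of 6 tested T and NK cell genes 1 fell, gata3, a T cell regulator that several epithelia also express, at 5.81, 1.54 and 2.08 CPM in the pax2a-high replicates, against 90.2, 155 and 51.8 CPM in the pax2a-low replicates (edgeR adjusted p = 0.030). It no longer passed when any of the pax2a-high replicates 1, 2 and 3 was left out (edgeR adjusted p of 0.060, 0.071 and 0.056) or when pax2a-low replicate 2 was (0.170).

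The ionocyte and thyroid lists gave calls by edgeR, which called 1.46% of all genes tested lower and 1.12% higher. DESeq2 called 4.1% of all genes lower and 6.57% higher, and limma 2.47% lower and 1.09% higher. At an unadjusted edgeR p under 0.05, 9.76% of all genes were higher and 4.6% lower. Of 19 tested genes of ionocytes and gill epithelium, 8 fell and 0 rose by edgeR (8 lower by DESeq2 and 7 by limma), among them foxi3b, a regulator of ionocyte formation, and atp1b1b, a sodium pump subunit. Their summed level was 1973 to 2912 CPM (pax2a-high) and 10159 to 14236 CPM (pax2a-low). Of 11 tested thyroid genes 2 rose by edgeR and 0 fell, the iodide transporter gene slc5a5 and the deiodinase gene dio1. DESeq2 called 4 thyroid genes higher and limma called 0. Thyroid sums were 160470 to 243865 CPM (pax2a-high) and 3676 to 33204 CPM (pax2a-low). The thyroglobulin gene tg alone held 159450 to 242081 CPM (pax2a-high) and 3599.5 to 32823.5 CPM (pax2a-low). These sums therefore lay almost wholly in tg and say little of the rest of the list. Of 9 tested endothelial genes 0 passed edgeR, DESeq2 or limma and 0 had an unadjusted edgeR p under 0.05, with sums of 55.5 to 93.6 CPM (pax2a-high) and 73.8 to 199 CPM (pax2a-low). Of 9 tested fibroblast and mural cell genes 0 passed edgeR or limma (1 higher at an unadjusted edgeR p under 0.05), DESeq2 called 1 higher, and the sums were 960 to 1357 CPM (pax2a-high) and 148 to 424 CPM (pax2a-low). The part of the ionocyte and thyroid differences in the values of cd74a, cd74b and mpeg1.2 was not tested.

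**Figure D4:**
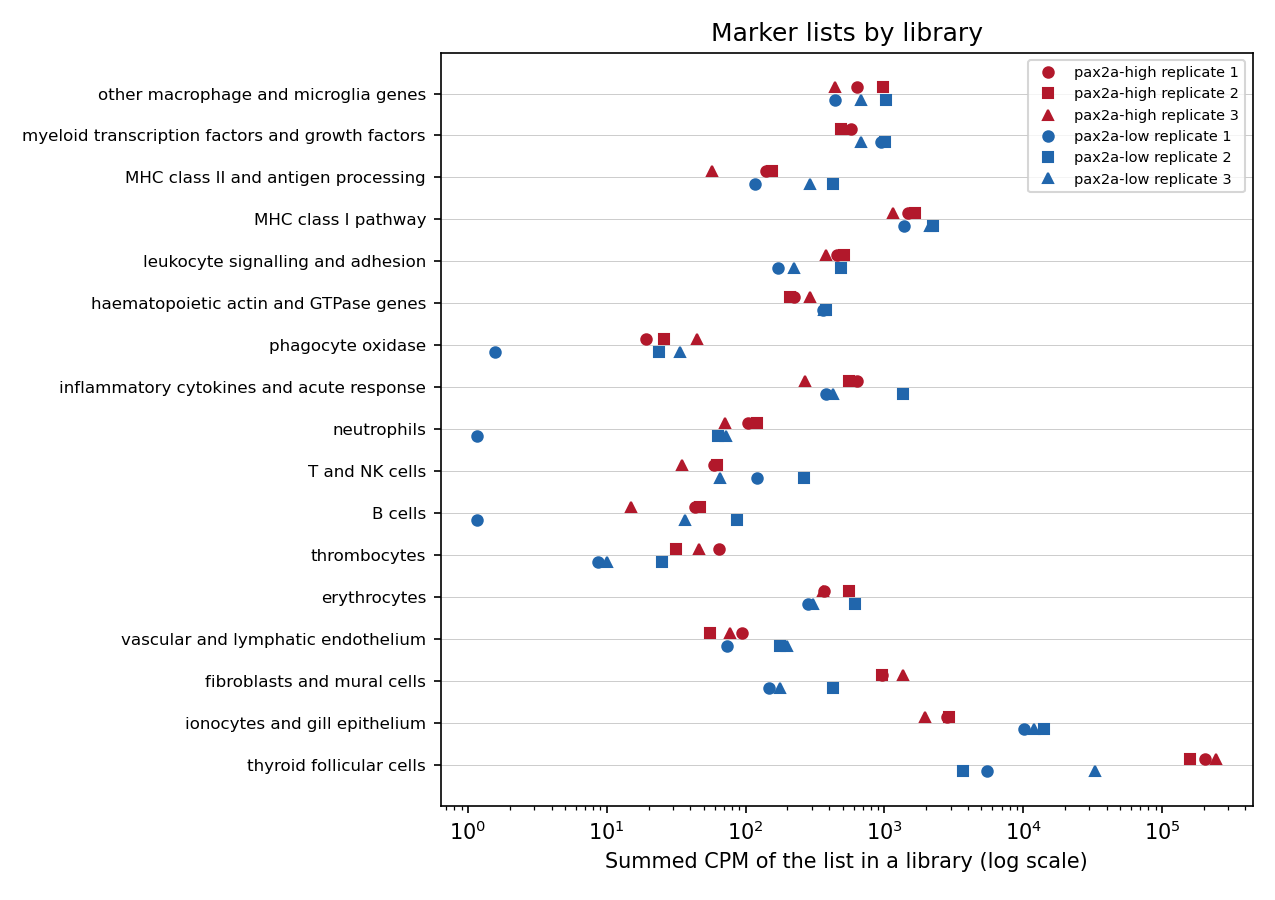
Summed CPM of each marker list in each library on a log axis, with pax2a-high libraries (red) drawn above pax2a-low libraries (blue) in each row and a symbol for each replicate number. The thyroid and the ionocyte and gill lists separate the groups in opposite directions. The myeloid factor, actin and T and NK lists are lower in every pax2a-high library, and the thrombocyte and fibroblast lists are higher in every one. The other lists overlap, and pax2a-low replicate 1 is lowest for the neutrophil, B cell and phagocyte oxidase lists. In each pax2a-low library gata3 alone makes up most of the T and NK sum, and in every library tg alone makes up most of the thyroid sum. The part of single genes in these separations was not tested.

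To see which genes had the library profile of the markers as a whole, each marker's log2(CPM + 1) was standardised over the 6 libraries and averaged, and 6923 other named genes with a mean of at least 10 CPM were compared with that profile. The 10 most alike were krt94, nuggc.3, kidins220a, slco2b1, dspa, trrap, frya, prlra, krt15 and fgd5a, with Pearson's r of 0.974 to 0.920 over the 6 libraries, given as a description of libraries that also differ in depth. All 10 were highest in pax2a-low replicate 2. The keratin gene krt94 had 0.124, 8.92 and 0.455 CPM in the pax2a-high replicates, against 0, 95.6 and 0 CPM in the pax2a-low replicates, and the prolactin receptor gene prlra had 0, 5.02 and 4.64 CPM in the pax2a-high and 0, 229 and 0 CPM in the pax2a-low replicates. The averaged marker profile itself, a mean of the markers' standardised levels, was 1.02 in pax2a-low replicate 2 and between -0.49 and 0.23 in the other 5 libraries.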

How the data were processed

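Total RNA was sequenced, and the deposited values are raw read counts per gene. Per the submitters' processing notes, HISAT2, featureCounts and the build GRCz11 were used. Versions, strandedness and the handling of reads that map to several places are not given in the sources used here. Even numbers made up 67.8 to 89.0% of each library's nonzero counts. Reads carry no molecular identifiers in the labels. Floors of 3 counts cover counting error only and take counts as independent, so they may be too low.

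Groups and replicate numbers came from sample titles. P-values measure the spread between these libraries, which may be technical. Counts were fitted in edgeR 4.0.16 (R 4.3.3) over all genes (filterByExpr, TMM, robust quasi-likelihood fit on the group alone, Benjamini-Hochberg adjustment over 12524 genes, threshold 0.05). The code was run on simulated data with less spread than these libraries and changes in abundant genes only. That run does not show how the test performs on sparse markers here. Standard errors come from the quasi-likelihood statistic. DESeq2 1.42.0 and limma 3.58.1 (voom, quality weights) were alternatives.

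The members, lists and tests were chosen with earlier results of these data known. The rule for named genes took all 10 markers, list genes that passed and up to 4 a list with the smallest p, and the 10 genes most like the marker profile. Others, including paralogues, c1qa, c1qb, c1qc, ccl34b.1, lgals9l1, mrc1a, ctsk, mhc2b, ctss2.1, cd40, itgb2, fth1a, mpx, lyz, cxcr1, cxcr2, lck and cd79a, were chosen after their values were seen. List genes missing by name were looked up in a symbol table, and neighbours in RefSeq (GRCz12tu). In the T and NK list, nkl.1 and nkl.2 matched the same row, and that row entered the list for each name. The list also held cd3eap, an RNA polymerase I subunit gene and not a T cell gene.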

Additional observations from a re-analysis of the deposited data

How the results depend on the processing

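The negative direction of cd74a, cd74b, mpeg1.2 and csf1ra and the positive one of ptprc held under every alternative in which they were tested, with log2 fold changes of -5.43 to -3.02, -3.78 to -2.27, -5.87 to -4.40, -11.06 to -1.27 and 0.81 to 3.01. That of coro1a turned to -1.33 without pax2a-high replicate 3 and -1.93 without both libraries numbered 3, and was 8.74 without pax2a-low replicate 2. Markers called lower numbered 0 by the edgeR fit, 2 with DESeq2 size factors (which moved the median of all genes by -0.11), 1 without mitochondrial rows, 3 without a count filter, with DESeq2 or with limma, 1 without both libraries numbered 3, 1 with counts halved (chosen after seeing the data), and 0 to 3 with a single library left out.

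Replicate numbers, called sets in the table's header, are not said to mark a shared animal, batch or day. Deviations of same-numbered libraries correlated at 0.032, 0.053 and 0.079, and each library correlated best with its own number, a hint from the data and not from the design. With the replicate block 3 markers were called lower (adjusted p of 3.9e-09 for cd74a, 0.0047 for cd74b and 0.016 for mpeg1.2) and 425 genes higher. Over all genes, 140 were higher and 183 lower, with ranges of 40 to 270 and 120 to 253 when a single library was left out. Higher and lower genes numbered 328 and 299 without a filter, 823 and 513 with DESeq2, 7 and 42 without both libraries numbered 1, 6 and 47 without both numbered 2, and 44 and 110 at an adjusted p of 0.01. With the filter of 5 CPM, 73 were higher, and with limma 309 were lower. The mean summed marker level in pax2a-low cells was 1538 CPM over totals without mitochondrial rows. The cause of these shifts was not tested. The pax2a-low libraries were shallow, but detection did not follow depth alone. Among them, replicate 3 had 10932845 counts and 11301 genes detected, against 7189239 counts and 14215 genes in replicate 2. The low depth and the sparse detection of genes in pax2a-low replicates 1 and 3 limit what can be said of the 7 sparse markers.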
